A study of Drosophila melanogaster with 4 samples.

Results

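Chromosome arm 2L is the left arm of the second chromosome of Drosophila melanogaster. The HP1b regions described here are the enriched regions whose midpoint lies at or below position 21011544 of 2L (FlyBase r5), which leaves out the 2 Mb next to the centromere. There were 1210 such regions among the 9130 of the series-wide list, 762 among the 5248 of HP1b ChIP replicate 1 and 683 among the 4633 of HP1b ChIP replicate 2. The embryos were of the wild-type strain Oregon-R at 14 to 16 h of development and were fixed in 1.8% formaldehyde. Chromatin was precipitated with the HP1b antibody Q4114 in 2 ChIP libraries, and 2 Input libraries of genomic DNA, one for each ChIP library, served as reference. All 4 libraries share strain, genotype and stage, whole embryos mix all tissues, and nothing in the labels tells whether separate embryo collections were used, so spreads between the replicates may be technical.

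HP1b belongs to the Heterochromatin Protein 1 family. These proteins carry a chromodomain, which binds methylated histone tails, and a chromo shadow domain, through which they dimerise and recruit partner proteins. The founding member, HP1a, is best known from heterochromatin around centromeres, whereas HP1b has been found in both heterochromatin and euchromatin of flies. Most of 2L is euchromatin, so the trimmed arm shows where HP1b sat along a gene-bearing chromosome. Genes are not named, because the gene table at hand is of another genome release.

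HP1b regions on 2L were short, numerous and scattered over the whole arm. In replicate 1 they covered 8.77% of the 21011544 bp, and their widths ran from 1303 to 11920 bp around a median of 2186.5 bp. In replicate 2 they covered 7.54%, and their widths ran from 1301 to 8450 bp around a median of 2129 bp. The mean cover was 8.15% ± 0.869 (SD, n = 2) and the mean density was 34.4 ± 2.66 regions per Mb (SD, n = 2). The middle 50% of widths was narrow, from 1893 to 2556 bp in replicate 1 and from 1812.5 to 2482 bp in replicate 2. Only 20 regions of replicate 1 and 12 of replicate 2 reached 5 kb. The first region began close to the tip in each list, at 17552 in replicate 1 and 17652 in replicate 2.

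Wider regions had higher values of the authors' score, most clearly in the replicate lists. The score is the authors' own value per region, which the sources used here do not define. The values step like a log2 ratio, as set out with the processing, so a difference of 1 is read as a factor of 2. Median scores were 0.67 in replicate 1 and 0.73 in replicate 2, and the highest were 2.47 and 2.23. Across the 762 regions of replicate 1 width and score correlated with a Spearman rho of 0.812, and across the 683 of replicate 2 with 0.777. The values were lower in the series-wide list, at 0.663, and in its 596 regions that overlapped both replicates, at 0.497. In each replicate list width and score come from the same enrichment profile of 1 library. In the series-wide list both belong to regions whose making is not stated. The values therefore describe the lists and do not measure independent quantities.

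The replicates placed most HP1b regions of 2L at the same positions. Of the 762 replicate 1 regions, 603 (79.1%, 95% Wilson interval 76.1 to 81.9%) shared at least 1 bp with a region of replicate 2. Over all sequences of the genome the share was 74.5%. Of the 683 replicate 2 regions, 610 (89.3%, interval 86.8 to 91.4%) overlapped a replicate 1 region, against 85.9% over all sequences. The intervals cover counting error only and treat neighbouring regions as independent. The genome-wide shares include heterochromatin scaffolds. On the other 4 major arms, trimmed of their centromeric 2 Mb in the same way, the shares ran from 75.8% on X to 80.9% on 2R for replicate 1 and from 85.9% on 2R to 87.5% on X for replicate 2. The replicate 1 share of 2L lay inside this range and the replicate 2 share above it, with an interval that reached down to 86.8% and so overlapped the range. The covered bases had a Jaccard index, the shared bases divided by all covered bases, of 0.691 on 2L and of 0.655 to 0.688 on the other arms.

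Taken locus by locus, agreement was mostly one to one. Joining overlapping regions of the replicates gave 833 loci, of which 601 (72.1%, 95% Wilson interval 69.0 to 75.1%) held regions of both. Another 159 loci were called in replicate 1 alone and 73 in replicate 2 alone. At 590 of the 601 shared loci 1 region of each replicate overlapped, and at 11 a region of one replicate met several of the other. The edges were placed closely. In 601 pairs each region was the largest overlap of the other, and their median offset was 88 bp at the left edge, 91 bp at the right edge and 74.5 bp at the centre. The centres lay within 500 bp of each other in 551 pairs (91.7%), and the widest centre offset was 1615 bp. These offsets compare with median widths of 2186.5 and 2129 bp.

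The scores of shared loci agreed in order and, in most pairs, to within 0.25 in size. Over all 612 overlapping pairs Spearman's rho was 0.840 and Pearson's r 0.895, and over the 601 pairs just described they were 0.851 and 0.901. The pairs all come from the same 2 libraries and are given as a description. Over the 601 pairs the median difference, replicate 1 minus replicate 2, was 0.03, with the middle 50% of pairs between -0.08 and 0.16. In 510 pairs (84.9%) the scores differed by at most 0.25. Differences ran from -0.47 to 0.62, and 345 pairs (57.4%) scored higher in replicate 1. They also varied with level. Replicate 1 was mostly higher in strong pairs, as at 18687818 (2.47 and 1.90), and mostly lower in weak ones, as at 1439229 (0.30 and 0.59). The small median difference therefore does not hold at every level. Of the 100 highest-scoring regions of each replicate on 2L, all had a partner in the other, and 79 pairs were among the 100 highest in both.

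**Figure D1:**
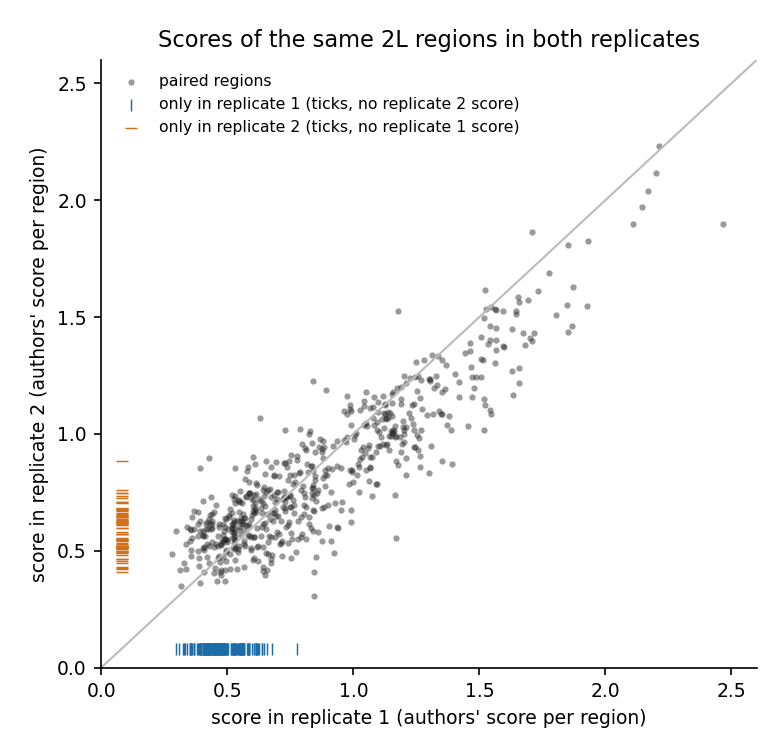
Score of each of the 601 paired 2L regions in replicate 1 (x axis) and replicate 2 (y axis), both the authors' score per region, with equal scores on the grey line. Ticks at the bottom and left mark the 159 regions found in replicate 1 alone and the 73 found in replicate 2 alone, which reach no higher than 0.78 and 0.88.

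The 5 pairs that differed most were all higher in replicate 1. At 20648490 to 20651103 the score was 1.17 in replicate 1 and 0.55 in replicate 2. At 18687818 to 18690675, the highest-scoring region of replicate 1, it was 2.47 and 1.90. The other pairs began at 7062645 (0.85 and 0.30), 818513 (1.39 and 0.87) and 13175835 (1.52 and 1.02). In each of these 5 pairs the replicate 2 region lay wholly inside the replicate 1 region, so the loci coincided and their heights differed.

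Regions without a partner were weak and narrow. The 159 of replicate 1 had a median score of 0.47 and a median width of 1656 bp, against 0.79 and 2288 bp for those with a partner. The 73 of replicate 2 had a median score of 0.57 and a median width of 1506 bp, against 0.76 and 2204 bp. Regions under 2000 bp made up 84.9% of the unpaired and 19.7% of the paired regions of replicate 1, and 93.2% and 30.3% in replicate 2. When replicate 1 was divided by score into 4 classes of nearly equal size, the share found again was 46.6% (89 of 191), 71.1% (135 of 190), 98.9% (188 of 190) and 100% (191 of 191) from the lowest to the highest. In replicate 2 it was 77.8% (133 of 171), 82.5% (141 of 171), 97.1% (165 of 170) and 100% (171 of 171). Of the unpaired regions, 2 of 159 in replicate 1 and 5 of 73 in replicate 2 scored above the median of their list.

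The strongest unpaired regions were well below the strongest shared ones. In replicate 1 the highest was at 18571317 to 18573770, with a score of 0.78, rank 314 of the 762. The next were at 8070611 to 8073627 (0.68), 19008372 to 19010549 (0.66), 10436403 to 10438513 (0.65) and 3036328 to 3038389 (0.64). All 5 were also in the series-wide list, with scores of 0.44 to 0.55. In replicate 2 the highest was at 19333921 to 19335237, with a score of 0.88, rank 233 of the 683, and the nearest replicate 1 region lay 27005 bp away. The next were at 3673969 to 3675280 (0.76), 857235 to 858597 (0.75), 6023537 to 6024844 (0.75) and 5978125 to 5979442 (0.74). These 5 regions were 1308 to 1363 bp wide, close to the shortest width of the replicate lists (1301 bp), whereas the 5 of replicate 1 were 2062 to 3017 bp wide. The region at 3673969 had no counterpart in the series-wide list either, 1 of 3 such replicate 2 regions on the arm. The median distance from an unpaired region to the nearest region of the other replicate was 6852 bp for replicate 1 and 6754 bp for replicate 2, and 19 and 12 of them lay within 1 kb.

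All 762 regions of replicate 1 and 680 of the 683 of replicate 2 overlapped the series-wide list. From the list's own side, 596 of its 1210 regions on 2L met both replicates, that is 49.3% (95% Wilson interval 46.4 to 52.1%) against 41.9% over all sequences. On the other trimmed arms this share was 46.8 to 49.9%, so 2L lay inside their range. The 596 form what is called the reproducible set. Replicate 1 alone matched 156 others, replicate 2 alone matched 64, and 394 (32.6%) had no match. The 394 had a median width of 1285 bp and a median score of 0.37, against 2545 bp and 0.72 in the reproducible set, and 206 of them were narrower than 1301 bp. When only the 993 regions at least 1301 bp wide were counted, the reproducible share was 60.0%. Where a series-wide region met exactly 1 region of each replicate (573 cases), it was wider than their mean in 569, by a median of 253.5 bp, and scored below their mean in 540, by a median difference of -0.06.

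A few series-wide regions in neither replicate scored high. Of the 160 series-wide regions with a score of at least 1, 156 were in both replicates and 4 in neither. The highest score of the whole arm, 2.62, belonged to one of these 4, at 5175732 to 5176732. The others were at 19620222 to 19621222 (score 1.58), 15653824 to 15654832 (1.29) and 20582842 to 20583856 (1.20). All 4 were 1001 to 1015 bp wide, at or just above the shortest width of that list (1001 bp), and the nearest region of either replicate lay between 4248 and 91182 bp away. The fifth by score, at 20191970 to 20193432, scored 0.83. All 19 series-wide regions of exactly 1001 bp were in neither replicate, with scores from 0.39 to 2.62. The sources used here do not say how the series-wide list was made, and these regions are left out of the arm's strongest sites.

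The strongest reproducible regions of 2L were spread along the arm. The region at 18687792 to 18690676 had the highest score of the reproducible set (2.18), with 2.47 in replicate 1 and 1.90 in replicate 2, where it ranked 1 and 6. The region at 16485264 to 16488920 scored 2.17, with 2.21 and 2.23, and ranked 2 and 1. The region at 20081832 to 20087748 scored 2.06, with 2.20 and 2.12, and was the widest of the 10 strongest at 5917 bp. The 10 strongest thus included the region that led each replicate list.

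The next of the 10 were at 8161346 to 8164120 (2.03), 7798702 to 7801502 (2.00), 6785670 to 6789234 (1.90) and 8533690 to 8537106 (1.83). The last were at 15037800 to 15040466 (1.72), 16349332 to 16354144 (1.72) and 16655456 to 16658024 (1.71). Each of the 10 ranked among the 18 highest of both replicates. Their widths ran from 2569 to 5917 bp with a median of 3151 bp, so all 10 were wider than the median of the reproducible set (2545 bp). Of the 10, 4 lay between 0 and 11 Mb, 4 between 11 and 18 Mb and 2 between 18 and 21 Mb. These parts held 364, 118 and 114 of the 596 reproducible regions. Of the 10, 4 lay inside a dense group as defined below, and such groups held 25.7% of the reproducible set.

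The widest regions were other loci. The widest of the reproducible set, at 2191248 to 2203554, spanned 12307 bp with a score of 0.95. Replicate 1 called 11920 bp of it as 1 region, while the wider of 2 replicate 2 regions there spanned 8450 bp. The region at 12001354 to 12013494 (12141 bp, score 1.54) was 2 regions in each replicate, the higher-scoring of them 7382 bp in replicate 1 and 7334 bp in replicate 2. The others were at 2747598 to 2755926 (8329 bp, score 0.89), 20114600 to 20122404 (7805 bp, score 1.04) and 15907088 to 15914634 (7547 bp, score 1.26). The region at 15907088 was also 2 regions in each replicate, the higher-scoring of them 4096 bp in replicate 1 and 4519 bp in replicate 2. The region at 2747598 joined a replicate 1 region of 6149 bp with an unpaired one of 1483 bp. Series-wide regions can therefore join neighbouring replicate regions: 12 of the 1210 met several replicate 1 regions and 19 several replicate 2 regions.

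HP1b regions were unevenly spaced along 2L. Density in 1 Mb bins of the reproducible set ran from 9 to 47 regions. The most were at 10 to 11 Mb from the tip, where replicate 1 had 58 regions, replicate 2 had 50 and the reproducible set 47. The next were 19 to 20 Mb (50, 49 and 44) and 20 to 21 Mb (48, 45 and 42). The fewest were at 17 to 18 Mb, where each replicate had 10 regions and the reproducible set 9, followed by 14 to 15 Mb (23, 17 and 13). The bins at 11 to 12 Mb (19, 21 and 14) and 15 to 16 Mb (19, 15 and 14) were tied for the next place.

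The counts of the replicates tracked each other from bin to bin. Over the 21 full bins, Pearson's r was 0.969 and Spearman's rho 0.958, given as a description because neighbouring bins and both lists share the same genome and similar preparation. Replicate 1 had more regions in 16 bins, an equal number in 4 and fewer in 1, at 11 to 12 Mb. Density and score did not go together in the reproducible set: the median score per bin ran from 0.56 to 0.89, and its Spearman rho with the count was -0.11. The share of loci found in both replicates ran from 48.1% (13 of 27, 95% Wilson interval 30.7 to 66.0%) at 14 to 15 Mb to 84.0% (42 of 50, interval 71.5 to 91.7%) at 20 to 21 Mb.

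**Figure D2:**
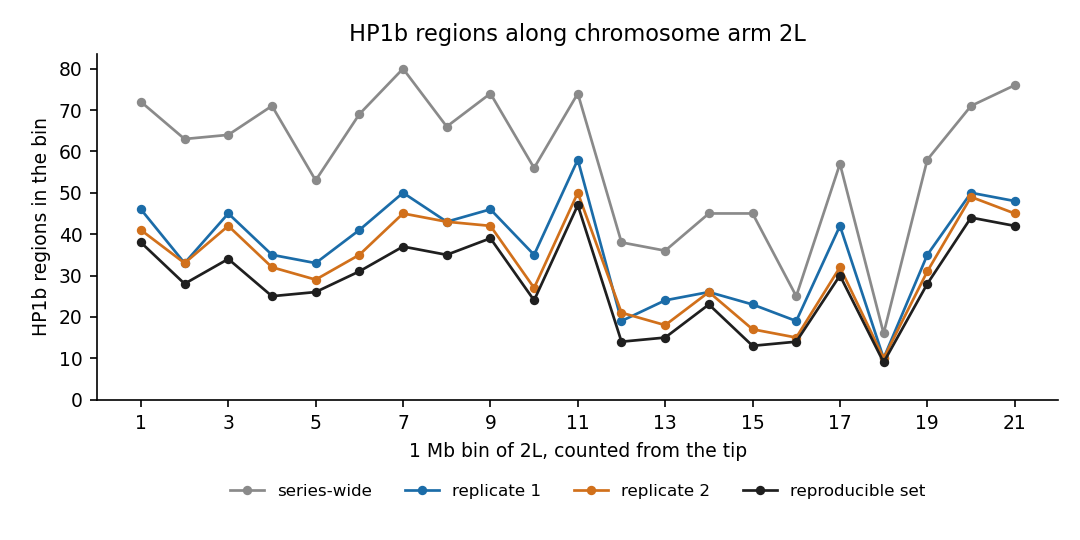
Number of HP1b regions (y axis) in each 1 Mb bin of 2L, counted from the tip (x axis), for the series-wide list, both replicates and the reproducible set. All 4 lines drop after bin 11, reach their lowest at bin 18 (9 to 16 regions) and are high again in bins 20 and 21.

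The arm was divided into an outer part, a sparser middle and an inner part, with limits chosen after the bin counts were seen. The middle was not uniform, as its bin at 16 to 17 Mb held 42 regions of replicate 1, 32 of replicate 2 and 30 reproducible ones, more than the outer bin at 9 to 10 Mb (35, 27 and 24). From 0 to 11 Mb there were 42.3 regions per Mb in replicate 1 and 38.1 in replicate 2 (40.2 ± 2.96, SD, n = 2). From 11 to 18 Mb there were 23.3 and 19.9 (21.6 ± 2.42, SD, n = 2). From 18 to 21 Mb there were 44.3 and 41.7 (43.0 ± 1.89, SD, n = 2). Because the limits were drawn from these counts, the lower density of the middle is a description and was not tested. Cover was 10.3% and 8.83% in the outer part, 5.62% and 4.62% in the middle and 10.3% and 9.65% in the inner part. Outside the middle, regions were 1.83 times as dense as inside it in replicate 1 and 1.96 times in replicate 2.

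Scores and widths of reproducible regions were close in all 3 stretches. In the reproducible set the median score was 0.73 in the outer part, 0.71 in the middle and 0.68 in the inner part, and the median widths were 2545, 2634 and 2495 bp. In replicate 1 alone the medians were 0.68, 0.60 and 0.68, and in replicate 2 they were 0.73, 0.74 and 0.71. The share of replicate 1 regions found again was 79.1% (95% Wilson interval 75.2 to 82.6%), 73.0% (65.7 to 79.2%) and 87.2% (80.5 to 91.9%). For replicate 2 it was 89.0%, 87.8% and 92.0%.

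The other major arms were set beside 2L, each without its centromeric 2 Mb. In 1 Mb bins of replicate 1, 2L ran from 10 to 58 regions, with a coefficient of variation of 0.343. The other 4 arms had a minimum of 24 to 27 regions, and their coefficients of variation ran from 0.184 on 2R to 0.262 on 3R. In replicate 2 the values were 10 to 50 regions and 0.360 on 2L, against minima of 21 to 25 and coefficients of 0.187 to 0.263. The median bin of 2L, with 35 and 32 regions, was close to those of 3L (38.5 and 34) and 3R (36 and 32). The mean cover of 2L, 8.15% ± 0.869 (SD, n = 2), was within 1 SD of 3R (8.47% ± 0.707) and 3L (8.71% ± 1.01), and below 2R (9.97% ± 0.703) and X (12.1% ± 1.42). The same 2 libraries supply every arm, so a sign-flip permutation over libraries could not give a two-sided p below 0.5, and the differences between arms are given as values without a test.

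**Figure D3:**
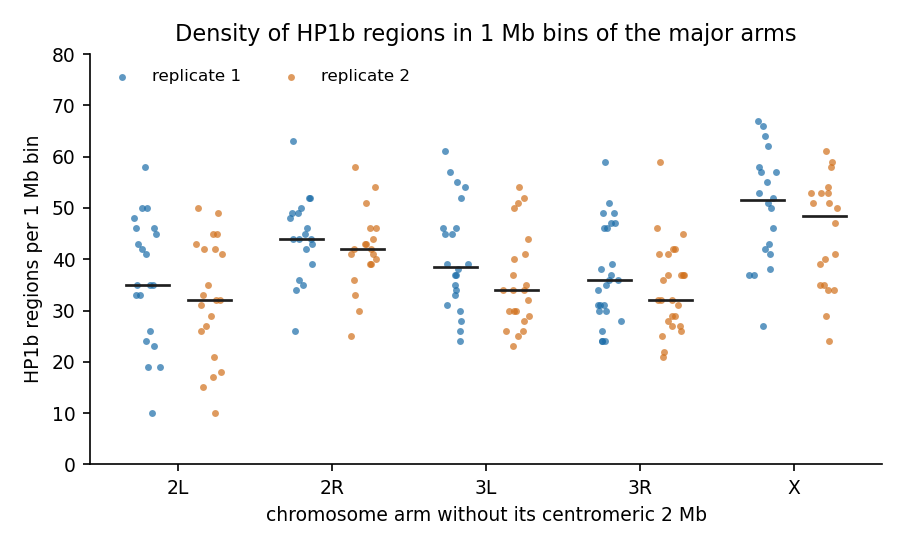
HP1b regions per full 1 Mb bin (y axis, 1 point per bin) on the 5 major arms without their centromeric 2 Mb (x axis), by replicate, with black lines at the medians (35 and 32 on 2L). The lowest bins of 2L, with 10 regions in each replicate, lie under every bin of the other arms, whose lowest counts are 24 and 21.

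Spacing combined many close neighbours with a few very long gaps. The gap is the number of bases between the end of a region and the start of the next. Its median was 9340 bp in replicate 1 and 9659 bp in replicate 2 (9499.5 ± 226 bp, SD, n = 2), while its mean was 25165 and 28374 bp. The middle 50% of gaps ran from 3463 to 26711 bp in replicate 1. At most 10 kb separated 395 of 761 neighbours (51.9%) in replicate 1 and 344 of 682 (50.4%) in replicate 2. The coefficient of variation of the gaps was 1.79 and 1.73, where gaps of regions placed independently at 1 rate would have a value near 1. On the other arms it ran from 1.51 to 1.80 in replicate 1 and from 1.49 to 1.67 in replicate 2. The value of 2L was thus near the top of that range in replicate 1 and above it in replicate 2.

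**Figure D4:**
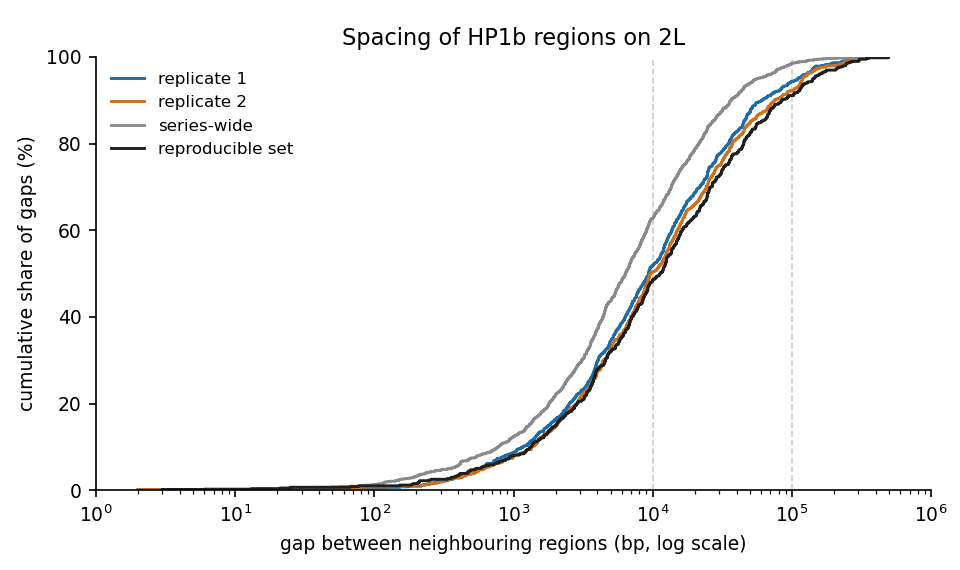
Cumulative share of gaps between neighbouring 2L regions (y axis, %) by gap length (x axis, bp, log scale) for each list, with dashed lines at 10 kb and 100 kb. The replicates nearly coincide, with 51.9% and 50.4% of gaps at or below 10 kb, and the series-wide list is shifted to shorter gaps (62.8%).

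Dense groups were defined as at least 5 regions in a row with gaps of at most 10 kb. The reproducible set held 24 of them, with 153 of its 596 regions (25.7%) on 4.67% of the arm. Of the 24, 16 lay between 0 and 11 Mb, 2 between 11 and 18 Mb and 6 between 18 and 21 Mb. Those parts differ in length and held 364, 118 and 114 of the 596 regions. The number depended on the list, with 39 groups in replicate 1, 30 in replicate 2 and 68 in the whole series-wide list. Regions in groups had a median score of 0.72, against 0.71 outside groups, and a median width of 2527 against 2555 bp. At the opposite end, 26 reproducible regions (4.36%) had no neighbour within 50 kb, and their median score was 0.73.

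The largest groups are listed with their counts in each replicate. Members of the reproducible set overlap both replicates by definition, so similar counts follow from that choice. The group with the most regions spanned 88881 bp at 10355246 to 10444126, with 11 reproducible regions, 13 in replicate 1 and 11 in replicate 2, and a median score of 0.81. The group at 20059998 to 20122404 had 9 reproducible regions on 62407 bp, with 9 in replicate 1 and 10 in replicate 2. Its median score of 1.21 was the highest of these 5 groups, and it included the region ranked 3 by score and that ranked 4 by width in the reproducible set. The group at 10199970 to 10266262 had 9 regions in each of the 3 lists and a median score of 0.57.

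The remaining 2 of the 5 largest groups were as follows. One, at 265790 to 310590, had 8 reproducible regions (8 and 9 in the replicates) and a median score of 0.67. The other, at 18675688 to 18709880, had 7 in the reproducible set and in each replicate on 34193 bp, with a median score of 0.97 and the strongest reproducible region of the arm among them. It was 1 of 5 groups tied at 7 regions and is named as the one with the shortest span. Regions took up 56.3% of its span and 57.3% of that at 20059998, against 37.5% of the group with the most regions.

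Both groups at 10 Mb belonged to a longer dense stretch. Another group, of 7 regions at 10297486 to 10345230, lay between them, 31223 bp from the first and 10015 bp from the second. The 3 groups together spanned 244157 bp from 10199970 to 10444126 and held 27 reproducible regions, 32 regions of replicate 1 and 28 of replicate 2. All 28 replicate 2 regions there overlapped a replicate 1 region, and 27 of the 32 replicate 1 regions overlapped a replicate 2 region. Regions covered 35.2% of the stretch in replicate 1 and 26.6% in replicate 2. For the whole arm the values were 8.77% and 7.54%. The stretch was picked for its density of regions found in both replicates. High agreement and high cover there therefore follow largely from the selection. The scores had a reproducible median of 0.69 and a maximum of 1.35.

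**Figure D5:**
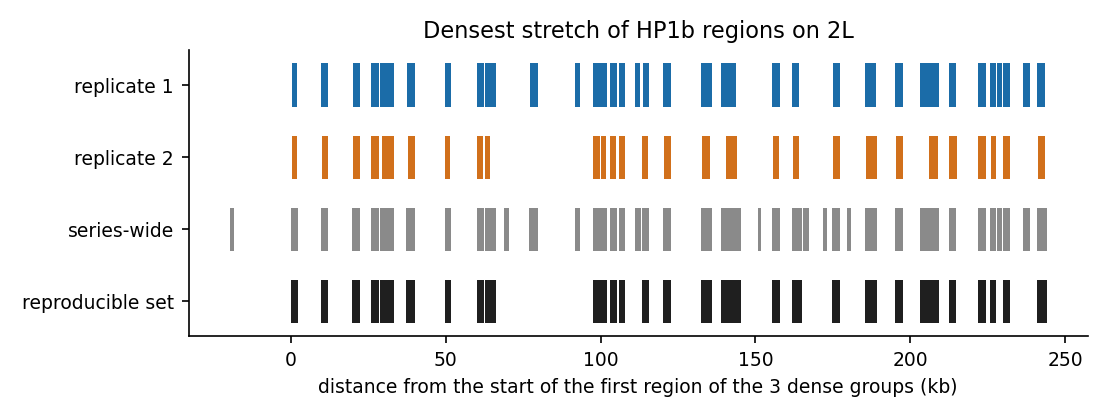
HP1b regions (bars, to scale) of each list across the 244157 bp dense stretch of 2L, by distance in kb from the start of its first region (x axis). The 28 regions of replicate 2 line up with replicate 1 regions, and the 5 unmatched replicate 1 regions are seen as bars with none below them in the replicate 2 row.

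Long empty runs took up a large part of the arm. In the reproducible set 53 runs of at least 100 kb held no region, 9550535 bp in all or 45.5% of the trimmed arm. By replicate there were 43 such runs on 35.4% of the arm in replicate 1 and 53 on 41.9% in replicate 2. On the other arms the shares ran from 21.8 to 33.5% in replicate 1 and from 23.6 to 35.1% in replicate 2. Both replicate values of 2L were above those of each other arm. In the series-wide list this did not hold, as the share was 14.3% on 2L and 17.9% on 3R. There 2L was above 2R, 3L and X (3.98 to 11.2%). The runs were not free of all signal. Inside the 53 runs lay 53 regions of replicate 1, 20 of replicate 2 and 215 series-wide regions, 143 of which overlapped neither replicate. The 215 series-wide regions had a median score of 0.38 and a maximum of 1.58. That maximum, and scores of 1.29 and 1.20 in other runs, belonged to narrow regions in neither replicate that are named above. Of the 53 runs, 18 held no region of either replicate.

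The longest run was the same in every list of replicates. It ran from 16889507 to 17382933 (493427 bp) in the reproducible set, and in the replicates it measured 490224 and 493576 bp. The series-wide list placed 5 regions inside it, with scores up to 0.46. Next came runs at 17785847 to 18140509 (354663 bp), 15914635 to 16256649 (342015 bp) and 9126737 to 9430091 (303355 bp). The run at 15914635 was empty in both replicates and held 1 series-wide region, of score 0.24. The others were at 11502561 to 11805705 (303145 bp), 14691407 to 14994389 (302983 bp), 17515261 to 17783809 (268549 bp) and 4466149 to 4725127 (258979 bp). Of these 8 runs, 6 lay inside the sparser middle between 11 and 18 Mb or across its inner limit, and 2 in the outer part. The limits of the middle were drawn from the region counts, so this placement is not a separate result.

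Of the 8 runs, 3 were neighbours. Between 16889507 and 18140509, a stretch of 1251003 bp, they took up 89.3% of the bases. The stretch held 9 reproducible regions, 10 in replicate 1 and 12 in replicate 2, or 7.99 and 9.59 regions per Mb. Of the 9, 8 lay in a row from 17382934 to 17515260, and the strongest, at 17382934 to 17386112, scored 1.17, with 1.35 and 1.18 in the replicates. The ninth stood alone at 17783810 to 17785846, with scores of 0.54 in replicate 1 and 0.42 in replicate 2, 268549 and 354663 bp from its nearest reproducible neighbours. A dense group could also border a long run directly: the group of 7 regions at 16256650 to 16308128 began where the run at 15914635 ended, and the other edge of that run was a region ranked 5 by width in that set.

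Distances to the nearest reproducible neighbour were set out by class. Of the 596 reproducible regions, 70.5% had another reproducible region within 10 kb. The share was 60.3% for the 156 series-wide regions in replicate 1 alone, 51.6% for the 64 in replicate 2 alone and 45.2% for the 394 in neither, with median distances of 7101, 9216 and 11834 bp against 4571 bp in the reproducible set. Within the replicate lists, regions with a neighbour in 10 kb were found again in 82.1% of cases in replicate 1 (464 of 565) and 91.6% in replicate 2 (456 of 498). For regions with the nearest neighbour at 10 to 50 kb the shares were 71.3% (127 of 178) and 84.0% (136 of 162), and for those at 50 kb or more 63.2% (12 of 19) and 78.3% (18 of 23). Median scores fell in the same order, 0.71, 0.60 and 0.57 in replicate 1 and 0.73, 0.71 and 0.68 in replicate 2, and the part of score in these shares was not tested.

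The inner limit of the trimmed arm fell between the following regions. The last series-wide region inside was at 21009040 to 21010172 (score 0.38) and the first outside at 21019456 to 21021102 (score 0.44). In replicate 1 these were at 21008948 to 21010250 (0.43) and 21025786 to 21027615 (0.31), and in replicate 2 at 20950613 to 20951999 (0.62) and 21025776 to 21027763 (0.62). The 2 Mb beyond held 168 further series-wide regions, 70 of replicate 1 and 58 of replicate 2, which are not described here.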

How the data were processed

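HP1b ChIP libraries (2) and Input libraries (2) of Oregon-R embryos were grouped by their titles. The authors deposited enriched regions with 1 score each. Coordinates are on FlyBase r5, per the file headers. The submitters' processing notes name Bowtie 0.12.7. The sources used here do not give the caller, its threshold, the score's definition or the making of the series-wide list. The lists carry no counts, so depth is unknown. For 59.2%, 70.7% and 48.8% of the 2L scores (replicate 1, replicate 2, series-wide), 2 raised to the difference from the list's highest score equalled, within a relative tolerance of 1e-12, a fraction of integers with a denominator of at most 2000, and at most 0.293% with base e or 10.

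Overlap meant at least 1 bp. Software was pandas 2.3.3, scipy 1.17.1, matplotlib 3.10.9 and numpy 2.4.6 under Python 3.11.15, used after the interval functions were tested on simulated data. No test was run, since a two-sided sign-flip permutation over 2 libraries cannot give a p below 0.5. Named were the 10 highest-scoring and 5 widest reproducible regions, 5 largest dense groups, 8 longest empty runs, 3 highest and 3 lowest bins, and 5 regions each of the unpaired, series-wide-only and most discordant kinds. The part of the arm, the lists and the limits were chosen with earlier results of these data known. Genes, promoters and sequences were not used here.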

Additional observations from a re-analysis of the deposited data

How the results depend on the processing

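Of 62 recomputed values, 29 stayed within the replicate SD, the 95% interval or 1.5 times the count, and 33 were counted as moved. The Jaccard index, Spearman's rho and the longest run had no such limit. Any change in these was counted as moved, however small. No value carries a test, so none gained or lost a call. Requiring 50% of both regions lowered the share of replicate 2 regions found again to 86.4%. With the 50% of each list that scored highest, the Jaccard index was 0.682, Spearman's rho 0.813, cover 4.92%, density 17.2 per Mb, median width 2459 bp, median gap 20355.5 bp and the density ratio outside against inside 11 to 18 Mb 2.01. With the series-wide list cover was 13.1%, density 57.6 per Mb, width 2067 bp, gap 6375 bp, the ratio 1.81, empty runs 18, the longest run 336239 bp and dense groups 68. With the reproducible set density was 28.4 per Mb, width 2545 bp, gap 11271 bp and the ratio 2.03. With the centromeric 2 Mb the Jaccard index was 0.674 and the gap 10037 bp, while rho was practically unchanged at 0.840. With the 601 mutual pairs in place of all 612 rho was 0.851. Empty runs numbered 104 at a minimum of 50 kb and 18 at 200 kb. The 50% of the reproducible set that scored highest had a longest run of 697639 bp and 2 dense groups, and gaps up to 5 kb or 20 kb gave 8 or 39 groups. Leaving out 1 replicate gave longest runs of 490224 to 493576 bp and 30 to 39 groups. The density ratio and its alternatives were chosen after seeing the data. Stricter or shorter lists lengthen gaps by construction; other causes were not tested. No paired analysis was possible because only the ChIP libraries have lists, so no ChIP and Input values can be paired. Without counts, a missing region cannot be told apart from one just under the authors' threshold.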
